A study of Caenorhabditis elegans with 2 samples.

Results

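The 269 peaks described here are those listed peaks of a worm transcription factor that lay in introns or between genes, away from gene starts and from small RNA genes. They were chosen by position alone, out of 809 listed peaks in all (33.2%, 95% interval 30.01 to 36.6%). A peak was a member when its summit lay in no exon of a protein-coding gene, outside the window from 1000 bp upstream to 200 bp downstream of every protein-coding start, and more than 200 bp from any tRNA, snoRNA or snRNA gene. Of the members, 97 lay inside the body of a protein-coding gene, hence in an intron, and 172 lay between genes. The other 540 listed peaks had their summits in promoter windows (216), in exons (203) or near a small RNA gene (121).

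The data come from chromatin immunoprecipitation with sequencing (ChIP-seq) of CEH-58, a homeodomain protein of Caenorhabditis elegans. Whole young adults of strain OP808 were used at 65 hours, in 1 group of 2 biological replicates. All worms carried the integrated fosmid transgene wgIs808, in which ceh-58 is joined to TY1, EGFP and 3xFLAG tags and which also holds unc-119(+), in an unc-119(tm4063) background; chromatin of 200 to 800 bp was precipitated with an antibody to GFP. There was no second genotype, treatment or time. The signal mixes all tissues of the animal, and the labels name no deletion of the endogenous ceh-58 gene. With 1 group, no condition could be compared and no test was possible. The control alignments that entered the authors' processing were not analysed here, and the depth of the libraries is unknown.

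Homeodomain proteins bind short AT-rich DNA words, often with a TAAT core, and many set the identity of neurons and other cells through enhancers. In worms most known regulatory DNA lies close upstream of genes, but introns and the stretches past gene ends also hold enhancers, transcripts without a coding frame and repeats. A tandem repeat is a stretch in which 1 unit is copied head to tail. Short reads from such copies match several places, so each peak is described together with how much of its sequence occurs once in the genome. All coordinates are those of ce11 (WBcel235), on the plus strand, and the sequences are read from the RefSeq genome of that build.

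The 3 members of highest signal lay in a repeat with a 40 bp unit. The windows below run 200 bp around the summit of the highest intergenic member, nearest the chemoreceptor gene srv-14 (IV:15895967-15896166), and of the highest intronic member, in tir-1 (III:3897225-3897424), which encodes the worm SARM protein of innate immune and neuronal signalling. Capitals mark a pattern of the heat shock element, to which heat shock factor HSF-1 binds, spelled GAA, any 2 bases, TTC, any 2 bases and GAA, and searched on both strands with overlaps allowed; overlapping matches run into each other, and srv-14 and tir-1 hold 18 and 23 of them.
srv-14: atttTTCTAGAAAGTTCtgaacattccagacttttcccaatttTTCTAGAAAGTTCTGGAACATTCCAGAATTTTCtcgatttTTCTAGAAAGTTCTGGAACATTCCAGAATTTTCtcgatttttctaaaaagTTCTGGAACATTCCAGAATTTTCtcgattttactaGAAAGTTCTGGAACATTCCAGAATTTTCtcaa
tir-1: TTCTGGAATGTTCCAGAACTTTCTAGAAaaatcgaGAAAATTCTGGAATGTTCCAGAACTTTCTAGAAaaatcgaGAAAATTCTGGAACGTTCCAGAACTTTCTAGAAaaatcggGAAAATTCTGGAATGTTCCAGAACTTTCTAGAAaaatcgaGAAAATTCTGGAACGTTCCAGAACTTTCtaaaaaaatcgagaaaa

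The next pair shows a repeat with a 25 bp unit, in which capitals mark the commonest exact unit of each window. The intergenic window is nearest Y54F10AM.8 (III:2499378-2499577) and the intronic window lies in Y32F6A.5 (V:10450477-10450676).
Y54F10AM.8: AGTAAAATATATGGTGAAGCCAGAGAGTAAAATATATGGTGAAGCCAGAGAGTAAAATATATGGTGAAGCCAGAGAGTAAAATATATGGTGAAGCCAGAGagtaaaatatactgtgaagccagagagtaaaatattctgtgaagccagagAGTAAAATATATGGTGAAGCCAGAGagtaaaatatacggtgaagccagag
Y32F6A.5: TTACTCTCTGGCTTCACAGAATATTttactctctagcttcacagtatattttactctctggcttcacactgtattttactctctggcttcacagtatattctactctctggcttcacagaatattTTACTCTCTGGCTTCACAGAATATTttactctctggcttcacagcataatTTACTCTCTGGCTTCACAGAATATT

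The third pair belongs to a dispersed element that is not a tandem repeat. Capitals mark the stretches covered by 31-base words (31-mers) shared with at least 50% of the other members of the group. The intergenic window is nearest ent-3 (V:14237576-14237775), a gene of the equilibrative nucleoside transporter family, and the intronic window lies in T24H10.5 (II:9102736-9102935).
ent-3: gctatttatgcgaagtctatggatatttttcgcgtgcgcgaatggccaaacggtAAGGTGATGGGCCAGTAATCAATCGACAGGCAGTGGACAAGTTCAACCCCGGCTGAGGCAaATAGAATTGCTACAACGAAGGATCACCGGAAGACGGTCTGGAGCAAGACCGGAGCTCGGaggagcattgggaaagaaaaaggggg
T24H10.5: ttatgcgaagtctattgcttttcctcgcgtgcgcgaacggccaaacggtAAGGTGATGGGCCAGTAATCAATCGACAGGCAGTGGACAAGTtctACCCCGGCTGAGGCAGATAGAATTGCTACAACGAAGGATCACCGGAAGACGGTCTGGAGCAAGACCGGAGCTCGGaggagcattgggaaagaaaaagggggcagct

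The last windows count as unique by the measure given below, with 84.7% of the 31-mers found once in the Y116F11B.9 window and all of them in the other 3. Capitals in the window in an intron of C32D5.12 (II:6358334-6358533) and in the intergenic window nearest hrg-5 (IV:11026099-11026298) mark a pattern of the B box, the inner promoter word of tRNA genes. It is spelled GTTC, any base, A, any 2 bases and CC. The C32D5.12 summit lay inside an annotated pseudogene. The windows in Y116F11B.9 (V:19856415-19856614) and nearest C30E1.4 (X:16930856-16931055) hold neither pattern, and capitals there mark the 20 bases around the summit.
C32D5.12: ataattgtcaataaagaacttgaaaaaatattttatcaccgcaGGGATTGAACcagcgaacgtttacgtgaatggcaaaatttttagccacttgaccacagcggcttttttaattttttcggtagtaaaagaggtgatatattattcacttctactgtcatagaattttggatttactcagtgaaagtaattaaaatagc
hrg-5: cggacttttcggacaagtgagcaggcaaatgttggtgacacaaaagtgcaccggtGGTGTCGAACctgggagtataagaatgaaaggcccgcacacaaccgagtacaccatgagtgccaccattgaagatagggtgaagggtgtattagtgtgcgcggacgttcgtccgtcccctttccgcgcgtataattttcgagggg
Y116F11B.9: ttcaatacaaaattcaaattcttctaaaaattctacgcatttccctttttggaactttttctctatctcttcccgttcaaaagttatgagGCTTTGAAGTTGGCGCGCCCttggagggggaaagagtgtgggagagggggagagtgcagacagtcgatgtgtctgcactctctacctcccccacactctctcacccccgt
C30E1.4: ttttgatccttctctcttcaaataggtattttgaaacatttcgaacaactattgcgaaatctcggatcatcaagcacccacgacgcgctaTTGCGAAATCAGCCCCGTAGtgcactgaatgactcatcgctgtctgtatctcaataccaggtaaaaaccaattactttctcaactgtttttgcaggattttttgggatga

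Introns and intergenic sequence held fewer listed summits than their share of the genome, and introns by more. Introns that met the rule made up 26.9% of the genome and held 11.99% of the listed peaks (9.83 to 14.4%), or 3.59 members per Mb. Intergenic sequence that met the rule made up 24.9% of the genome and held 21.3% of the peaks (18.5 to 24.2%), or 6.89 members per Mb. The intervals are exact Clopper-Pearson intervals and cover counting error only. The list of peaks called reproducible between the replicates (conservative) gave 157 members, of which 50 were intronic and 107 intergenic. Of the 157, 154 overlapped a candidate in both replicates. The members in Y116F11B.9, shown above, and in Y45G5AM.9 had none in replicate 2, and the member nearest rpa-2 had none in replicate 1. The other thresholded list (optimal), which was also derived from both replicates, added members that overlapped no conservative peak, 47 intronic and 65 intergenic.

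**Figure D1:**
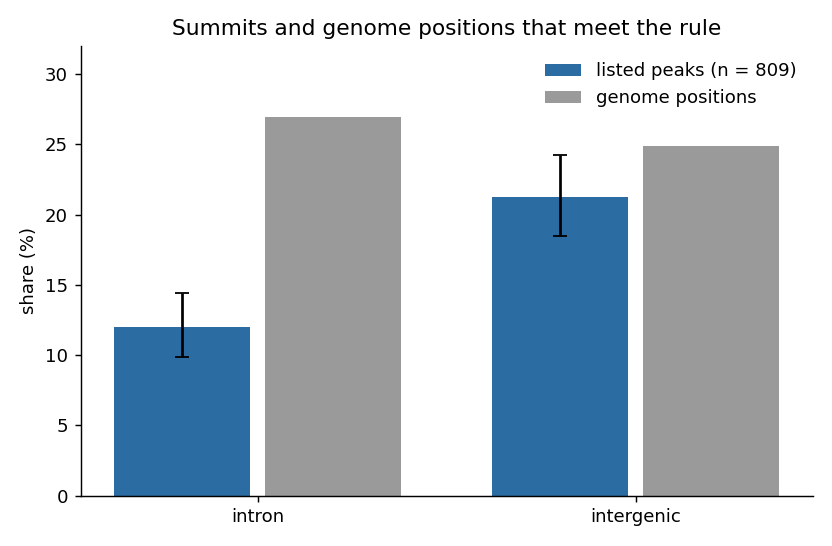
Share of the 809 listed peaks (left bar of each pair, with exact 95% interval) and of genome positions (right bar) that meet the rule, in percent, for introns and intergenic sequence. The intronic bar of the peaks stands at 11.99% against 26.9% of positions, and the intergenic bar at 21.3% against 24.9%.

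The authors' signal per peak, a value with no stated unit that is used here only to rank and describe peaks, had a median of 64.1 in intronic members (5.68 to 220.3) and 68.0 in intergenic members (14.9 to 263.6). The other listed peaks had a median of 65.0 (2.80 to 305.7). The 3 medians lay close to each other. The upper quartile was 83.6 in intergenic members, against 73.8 in intronic members and 74.8 in the other listed peaks. By class, those others had upper quartiles of 73.8 in promoters, 69.65 in exons and 84.5 near small RNA genes. The peaks near small RNA genes thus reached at least as high as the intergenic members, with a median of 72.7.

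In the replicates' own candidate lists, 254 members overlapped a candidate in both, with a median signal of 37.5 in replicate 1 (265 members with a candidate) and 30.5 in replicate 2 (258 members). The ratio of replicate 1 to replicate 2 had a median of 1.26 and quartiles of 0.981 and 1.53, and replicate 1 was the higher in 185 of the 254. In the other listed peaks the median ratio was 1.27, so the offset was about as large there. Few members passed the threshold in a single replicate. Replicate 1's own thresholded list overlapped 58 members (21.6%), where it overlapped 18.4% of all listed peaks, and replicate 2's own list overlapped 42 (15.6%), where it overlapped 10.6% of all listed peaks. Both lists overlapped 26 members (9.67%), where both overlapped 6.06% of all listed peaks, and all 26 were conservative peaks, of which 10.1% were in both lists. Neither list overlapped 195 members (72.5%).

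**Figure D2:**
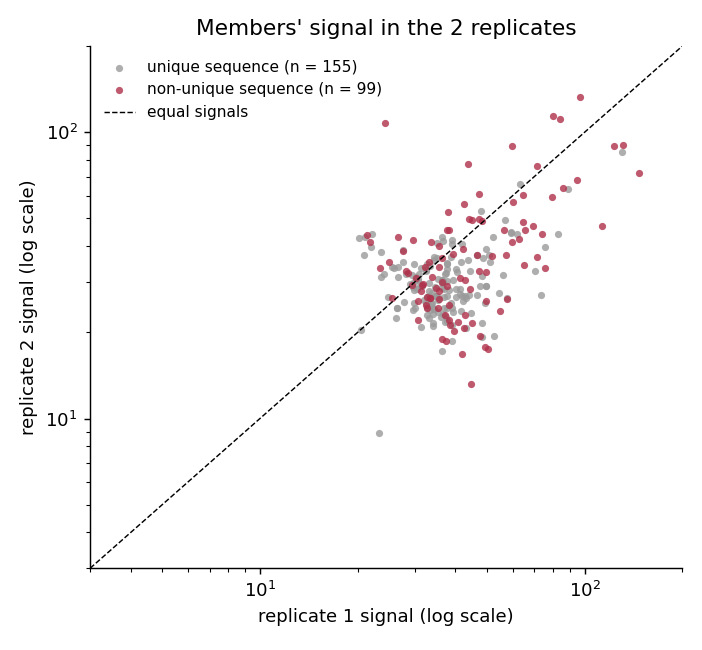
Signal of each member in replicate 1 (x axis) and replicate 2 (y axis), both on log scales, for the 254 members with a candidate in both replicates, with non-unique and unique sequence in different colours and a dashed line at equal signals. Most points lie below the line, as replicate 1 was the higher in 185 members, and the highest points are mostly of non-unique sequence.

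Much of the sequence under the members was not unique. A window counted as unique when at least 80% of its 31-mers occurred once in the genome on either strand, and 164 members (61.0%, 54.9 to 66.8%) met this, where 73.7% of all listed peaks and 83.1% of the 200 bp genome windows that met the rule did. Intronic members were unique in 66 of 97 cases (68.0%, 57.8 to 77.2%) and intergenic members in 98 of 172 (57.0%, 49.2 to 64.5%). The other listed peaks were unique in 432 of 540 cases (interval 76.4 to 83.3%). By class this was 87.5% of promoter peaks, 94.6% of exon peaks and 42.15% of peaks near small RNA genes (33.2 to 51.5%). The last class was thus less often unique than the members. Tandem repeats, in which a window matched itself in at least 80% of bases at a shift of up to 100 bp, held 34 members (12.6%, 8.91 to 17.2%), where they held 5.19% of all listed peaks and 1.46% of the genome windows. Of these, 27 were intergenic and 7 intronic, and 8 of the 540 other listed peaks (1.48%) lay in such repeats.

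The signal was higher in tandem repeats between genes. The 27 intergenic tandem repeat members had a median signal of 110.9 (49.98 to 263.6), against 68.0 over all intergenic members. The 7 intronic ones had a median of 63.9 (59.3 to 220.3), against 64.1 over all intronic members. Non-unique members as a whole had a median of 70.7 and unique members 63.9, and their middle ranges overlapped (quartiles 62.1 and 103.5 in non-unique members, 58.4 and 74.3 in unique members). Of the 20 highest members, 3 were unique. How reads that match several copies were placed is not given in the sources used here, and its part in these signals was not tested.

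The bases under the members were also richer in G and C than the rest of the genome that met the rule. The GC content of the windows averaged 46.1% ± 8.86 in intronic members and 43.8% ± 8.36 in intergenic members (SD over 97 and 172 windows). The other listed peaks averaged 45.9% ± 7.28, and the genome windows that met the rule 33.9% ± 7.13. The means of both kinds of member lay nearer to that of the other listed peaks than to that of the genome windows. The 13 members of the 40 bp repeat had 31.5 to 35.5% and the 7 of the 25 bp repeat 31.5 to 37%.

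Members that shared at least 20 of their 31-mers were joined into families, of which there were 9 with 43 members in all. Of the 20 highest members, 13 belonged to a family and 11 to the 40 bp and 25 bp repeats shown above. The 40 bp repeat was the largest family, with 13 members on 5 chromosomes, 3 of them intronic, and signals of 68.8 to 263.6 (median 128.2). The heat shock element pattern was in all 13 windows, with up to 25 matches in a window, and in 14 members overall (5.20%, 2.87 to 8.58%). It was in 14 of the 540 other listed peaks (2.59%) and in 1.75% of the genome windows, and no unique member held it. The pattern was chosen after these sequences had been seen.

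Of this family, the intergenic member nearest srv-14 had the highest signal of all, 263.6, with 155.0 in replicate 1 and no candidate in replicate 2, and it was in the optimal list only. The member nearest VY10G11R.1 had a signal of 224.7, with 131.1 and 90.2 in replicates 1 and 2. The stronger of a pair in the same intron of tir-1 had 220.3, with 146.5 and 72.2. The weaker tir-1 peak lay 322 bp away and had 121.5, with 64.5 and 60.4, so the replicates stood close there and far apart at its neighbour. The member nearest Y102A11A.1 had 168.5, with 112.9 and 47.1. The members nearest fbxa-190, an F-box gene, and fezf-1, a zinc finger transcription factor gene, had 145.9 and 143.2, with 71.2 and 76.0 and with 79.4 and 59.2 in replicates 1 and 2. Lower in the family stood an intron of unc-82, a muscle kinase gene, at 69.4, and the member nearest cec-8, a chromodomain gene, at 68.8.

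The 25 bp repeat had 7 members on 3 chromosomes, with signals of 57.7 to 193.5 (median 111.7). Both members nearest Y54F10AM.8 stood at the top with 193.5 and 193.4, and here replicate 2 was the higher, with 113.7 against 80.03 and 110.9 against 83.7 in replicate 1. A group of 3 summits within 1152 bp on chromosome I reached 163.5 at the one nearest pqn-21, a gene of a glutamine- and asparagine-rich protein, with 94.7 and 68.2 in replicates 1 and 2. An intron of Y32F6A.5 held 2 members, at 111.7 (64.7 and 48.4) and 97.2 (42.6 and 56.3). The replicates were ordered differently at these 2 neighbouring summits.

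The dispersed element had 9 members on 4 chromosomes, with signals of 58.7 to 113.4 (median 91.6) and a GC content of 49 to 54%. It lay in introns of T24H10.5 (109.2), K08C7.1 (105.0), pmt-2 (80.7), a gene of phosphatidylcholine synthesis, and hpo-38 (65.9). Its intergenic members were nearest ent-3 (113.4), F57A10.2 (103.2), dmd-10 (91.6), a gene of the doublesex family, the ferritin gene ftn-1 (81.0) and H14A12.5 (58.7). Replicate 1 was the higher in 6 of the 9 members. Of the smaller families, 3 members on X near C36E6.8 and C36E6.2 shared a 45 bp repeat and had 96.7 to 104.4. On chromosome II, 2 members near T02H6.11 and T02H6.3 shared a 75 bp repeat, with 149.0 (59.5 and 89.7 in replicates 1 and 2) and 75.8. Within the noncoding RNA gene C30E1.9 on X, 3 members shared sequence and had 45.2 to 71.6. The last 3 families were pairs, near K07D4.2 and C46C2.7, W02D7.12 and clec-219, and K08F11.1 and F40E3.3, with signals of 54.3 to 81.5.

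**Figure D3:**
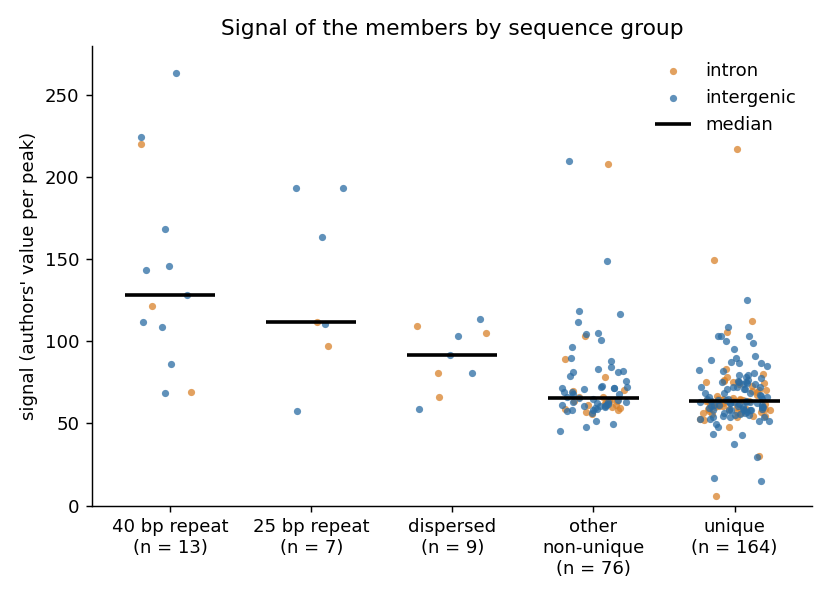
Authors' signal of each member (y axis, linear, no unit given) in the 40 bp repeat, the 25 bp repeat, the dispersed element, other non-unique sequence and unique sequence, with intronic and intergenic members in different colours and a bar at the median. The medians of the first 3 groups are 128.2, 111.7 and 91.6, while most members of the last 2 groups lie below 100.

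Non-unique members outside the families also reached high signals. The intergenic member nearest Y53G8AR.1 had a signal of 210.1, with 123.0 and 89.3 in replicates 1 and 2, in a 25 bp tandem repeat of which no 31-mer was unique. The intron of cmk-1, the gene of a calcium and calmodulin dependent kinase, had 207.9, with 96.4 and 132.4, and 31.8% of its 31-mers were unique. The optimal-only member nearest duo-3 differed most between the replicates in the direction of replicate 2, with 112.1 overall and with 24.2 in replicate 1 and 107.2 in replicate 2. It was chosen after its values were seen.

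Among unique members the highest was in an intron of ints-8, a gene of the Integrator complex that processes small nuclear RNAs, with 217.1 (130.2 and 85.3 in replicates 1 and 2). That summit lay inside rpr-1, the gene of the RNA of RNase P, an enzyme that cuts tRNA precursors; it is annotated as ncRNA, and so the rule did not remove it. Among introns, the next unique members were those of lips-10, a lipase-related gene, with 149.8 (88.7 and 63.2), and of frpr-10, a gene of the FMRFamide peptide receptor family, with 112.6 (75.2 and 39.8). The intron of C32D5.12 had 105.9 (59.2 and 44.8), at a summit inside an annotated pseudogene. In each of these 4 introns replicate 1 was the higher. The summit nearest hrg-5, with 125.0 (82.8 and 44.1), lay within the ncRNA gene F36H1.17 and within 200 bp of the microRNA gene mir-51.

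Other noncoding genes were annotated at some members. Inside an ncRNA gene lay 16 summits (5.95%, 3.44 to 9.48%), where 1.32% of positions that met the rule do. Of these, 6 lay in C30E1.9, within 7186 bp, and had signals of 43.8 to 118.6. The Y RNA gene yrn-1 held the summit in F55G1.15, with 63.7. Pseudogenes held 8 members (2.97%, 1.29 to 5.78%), where they held 5.42% of positions. No member lay within 200 bp of a piRNA gene (0 of 269, interval up to 1.36%), where 4.63% of positions do.

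The B box word was commoner at the members than in the genome around them. It was in 29 of 269 windows (10.8%, 7.34 to 15.1%), 13 intronic and 16 intergenic, where it was in 1.56% of genome windows that met the rule. The word was chosen after the sequences had been seen, and it does not by itself name a gene. Among unique members it was in 14 of 164 windows (8.54%, 4.75 to 13.9%), against 1.499% of unique genome windows. Outside the dispersed element, where 8 of the 9 members held it, it was in 21 of 260 (8.08%, 5.07 to 12.1%). Promoter and exon peaks held it in 4 of 419 windows (0.955%, 0.261 to 2.43%). Peaks near small RNA genes, a group that includes peaks at tRNA genes, held it in 74 of 121 (61.2%, 51.9 to 69.9%). The members lay between those groups. Of the 20 highest unique members, 6 held it, among them those in lips-10 and C32D5.12 and the one nearest hrg-5.

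**Figure D4:**
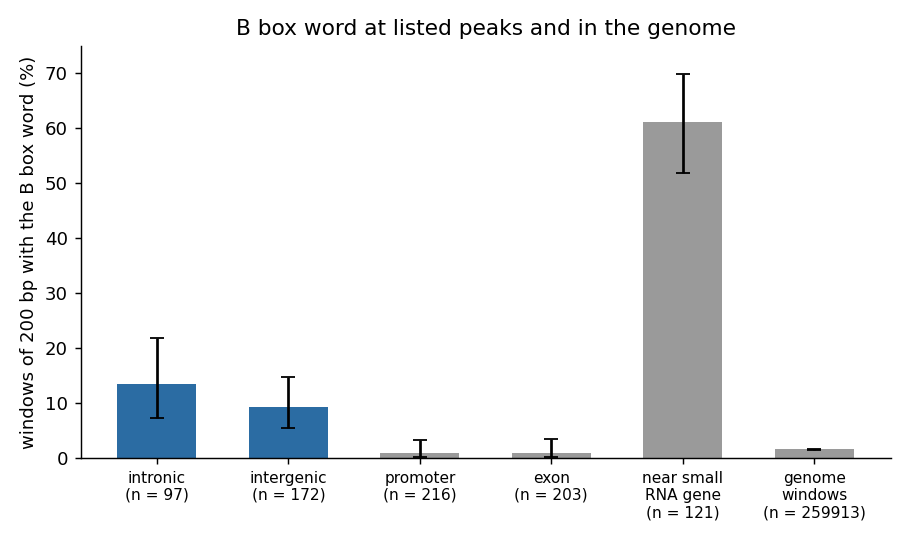
Share of 200 bp windows around summits that hold the B box word on either strand, in percent with exact 95% intervals, for intronic and intergenic members, the 3 other groups of listed peaks, and all genome windows that meet the rule. Members stand at 13.4% and 9.30%, above promoter peaks, exon peaks and genome windows and below the 61.2% of peaks near small RNA genes.

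Words known from homeodomains were no commoner at the members than in the genome windows. TAATTA was in 17 windows (6.32%, 3.72 to 9.93%), against 5.00% of other listed peaks and 10.1% of genome windows. TTAATT was in 44 (16.4%), against 81 of the 540 other listed peaks and 30.7% of genome windows, and CAATTA in 38 (14.1%), against 7.78% and 15.97%. The genome windows were poorer in G and C than the members, and the part of base composition in these shares was not tested. GAACCC, a word of tRNA gene promoters, was in 25 (9.29%), against 12.6% of other listed peaks and 3.62% of genome windows. CTGCGT was in 28 (10.4%), against 8.89% and 3.60%, and GAGAGA in 42 (15.6%), against 19.4% and 8.97%. TGATAA, a site of GATA factors such as those of the worm gut, was in 21 (7.81%), against 10.4% and 16.9%. The telomere unit TTAGGC was in 15 (5.58%), against 3.52% and 6.07%, and the control palindrome GGCGCC in 7 (2.60%), against 2.41% and 1.29%. All words were searched on both strands within 100 bp of the summit.

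The 97 intronic members lay in 97 host genes, since 1 member lay in 3 overlapping genes, 1 lay in 2, and 3 hosts held 2 members each. Those 3 hosts were tir-1, Y32F6A.5 and cpl-1, the gene of a cathepsin L protease. In cpl-1 the summits lay 199 bp apart. The member nearer the start had a signal of 5.68, the lowest of all intronic members, with 23.3 in replicate 1 and no candidate in replicate 2. Its neighbour had 23.3 and 8.88 in replicates 1 and 2. These peaks overlap, so the replicate 1 value can be that of the same candidate for both. The introns had a median length of 1275 bp (47 to 13864 bp), against 912 bp at the median intronic position that met the rule. Introns over 2000 bp held 38 members (39.2%), where 26.8% of such positions lie in them. For 82 members the nearest start was that of the host, at a median distance over all intronic members of 1344 bp (208 to 13934 bp), against 1653 bp for positions. No member had ceh-58 as its host or nearest gene.

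Hosts were counted in 9 lists of gene symbols, which do not hold every gene of their kind. Chemoreceptors had 4 hosts (4.12% of intronic members, against 3.23% of intronic positions), namely sre-46, srt-61, srw-31 and srw-100. Protein kinases and phosphatases had 3 (3.09%, against 1.03%), the insulin receptor gene daf-2 at 64.5, cmk-1 at 207.9 and gck-3, a kinase of osmotic regulation, at 72.9. The kinase genes unc-82, rsks-1 and egl-4 and the phosphatase genes pph-5 and dep-1 were also hosts but are not among the 61 genes of that list, so its count is too low. Transcription factors had 3 (3.09%, against 2.81%), the homeobox gene ceh-53 at 62.3, the nuclear receptor gene nhr-1 at 64.7 and the bZIP gene zip-7 at 78.4. Ion channels had 2, the calcium-activated potassium channel gene slo-1 at 76.0 and the bestrophin gene best-18 at 52.2. Adhesion genes had 2, the perlecan gene unc-52 at 64.6 and the contactin gene rig-6 at 59.8. Muscle and cytoskeleton genes had 2, the kinesin gene unc-104 at 66.0 and the cofilin gene unc-60 at 58.5. F-box and C-type lectin genes had 1 each, fbxa-153 and clec-264, and cuticle collagens had 0. With 0 to 4 hosts a list, the intervals all included the share of positions.

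Intergenic members lay more often past the ends of genes than intergenic positions did. Between the ends of 2 converging genes lay 62 of the 172 (36.05%, 28.9 to 43.7%), where 16.4% of intergenic positions that met the rule do. Between 2 diverging starts lay 23 (13.4%, 8.67 to 19.4%), against 29.8% of positions, and between a start and an end 87 (50.6%), against 53.4%. The share between converging ends was 34.7% among unique members and 37.8% among non-unique members. The distance to the nearest start had a median of 2728 bp (405 to 14206 bp), against 2687 bp for positions.

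Near gene ends, unique and non-unique members were counted apart. Within 500 bp downstream of the 3′ end of a protein-coding gene lay 47 of the 98 unique intergenic members (48.0%, 37.8 to 58.3%), against 14.9% of unique intergenic genome windows. Of the 74 non-unique members 10 did (13.5%, 6.67 to 23.4%), against 10.4% of non-unique windows. Within 1000 bp the shares were 53.1% of unique members (42.7 to 63.2%), against 23.6% of unique windows, and 31.1% of non-unique members (20.8 to 42.9%), against 20.6% of non-unique windows. Over both kinds the count was 57 of 172 (33.1%), against 13.9% of positions. The distances were chosen with the positions of these peaks already known.

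**Figure D5:**
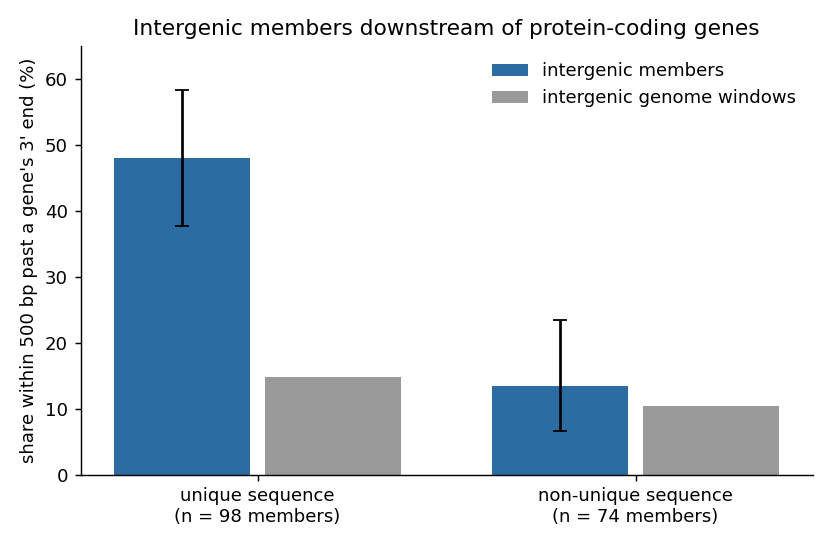
Share of intergenic members (left bar of each pair, with exact 95% interval) and of intergenic 200 bp genome windows of the same kind (right bar) within 500 bp past the 3′ end of a protein-coding gene, in percent. Unique members stand at 48.0% against 14.9% of windows, and non-unique members at 13.5% against 10.4%.

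Several of these genes are known as highly expressed, and those named here were chosen after their values were seen. Ribosomal protein genes, 83 in number, had 6 members within 250 bp of an end (3.49%, 1.29 to 7.44%), where 0.0228% of intergenic positions lie so. They were rps-6 (signal 87.4, with 48.1 and 31.5 in replicates 1 and 2), rps-27 (75.2, with 46.7 and 26.9), rps-15 (72.5, with 40.01 and 26.6), rpl-21 (72.4, with 44.2 and 32.8), rps-19 (29.4, with 70.04 and 32.8) and rpl-7A, whose summit also lay past the end of the transaldolase gene tald-1 (82.0, with 44.9 and 49.2). Replicate 1 was the higher in all but the last. A replicate's value is that of its highest overlapping candidate. At rps-19 both values exceeded the peak's signal and can be those of a neighbouring summit, which was not tested. Of 31 genes named eef or eif none had a member within 250 bp (0 of 172, interval up to 2.12%), but positions past their ends are 0.00307% of those that met the rule. That list is drawn by gene name and leaves out iff-1, described below, which had members 110 and 310 bp past its end.

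The chaperone gene hsp-1 had a summit 22 bp past its end (95.3, with 73.2 and 26.98), the actin gene act-2 130 bp past (74.4, with 47.5 and 28.9) and the proteasome gene pas-6 144 bp past (81.9, with 46.5 and 37.3). Genes known for roles in the germ line, oocyte or early embryo were also among them. The summit past pos-1, which encodes a maternal RNA-binding protein, had 52.2 and 42.9 in replicates 1 and 2, and that past cgh-1, an RNA helicase of germ granules, had 59.4 and 44.5. The summits past klp-7 and klp-18, kinesins of the spindle, had 105.3 (59.8 and 41.2) and 79.3 (49.5 and 39.2). The P granule gene pgl-1 had 71.9, the meiotic chromosome axis gene htp-1 66.0 and the meiotic spindle gene mesp-1 60.5. Genes of other kinds also had a member past their ends, such as nlp-40 (79.3), kvs-5 (75.4) and cutl-21 (59.2). No list of germline genes was counted, so their share is not known.

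Neighbouring members sometimes came as twins. Within 10 kb of another member lay 47 members, in 20 groups. Past egg-4, a gene of the oocyte-to-embryo transition, 2 conservative summits stood 199 bp apart with signals of 80.5 and 16.9. Near iff-1, a gene of the eIF5A family, 2 stood 200 bp apart with 47.7 and 14.9, and 14.9 was the lowest of all intergenic members. The twins of each pair overlap, so a replicate's highest overlapping candidate can be the same for both, and the replicate values are given once per pair (49.7 and 29.0 at egg-4, 26.5 and 24.3 at iff-1, in replicates 1 and 2).

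The cut of the rule ran through members near gene starts. Just outside the promoter window, 11 members lay 1000 to 1200 bp upstream of their nearest start and 7 lay 200 to 400 bp downstream. Per Mb that met the rule, intergenic members numbered 10.7 on I and 9.34 on III, 6.20 on IV, 6.22 on V, 6.37 on X and 4.76 on II. Intronic members numbered 5.68 on V and 2.64 to 3.47 on the other chromosomes.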

How the data were processed

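Thresholded and longer candidate peak lists were deposited from 2 biological replicates on ce11, per the labels. The peak caller was not given in the sources used here, nor was any aligner. The authors deposited a signal value per peak, with no unit in the labels or file headers, and a score from the irreproducible discovery rate, with a maximum of 1000. Control data were not analysed here, and depth is unknown.

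Conservative peaks (483) were joined with the optimal peaks (326 of 732) that overlapped none of them by 1 bp. Where a peak was identical in both lists (403), its signal was equal. Summits were placed on Ensembl release 115 gene models (19973 protein-coding genes, 29784 starts). Sequence measures used 200 bp around the summit and, for comparison, all 200 bp genome windows whose centre met the rule. A replicate's value is the highest signal among its candidates that overlap the member by at least 1 bp. The scripts were tested on simulated data. Work was done in Python 3.11.15 with pandas 2.3.3, numpy 2.4.6, matplotlib 3.10.9 and scipy 1.17.1.

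With 1 group and no second condition, no test was made, and peaks are not replicates. Intervals are exact Clopper-Pearson 95% intervals and cover counting error only. The members, word lists and gene lists were chosen with earlier results of these data known. Named genes are the 10 intronic and 10 intergenic members of highest signal, hosts with at least 2 members, ceh-58, families and the lowest member of each class; others were named after their values were seen. Alternatives were other peak sets, windows, distances, exon definitions and measures of uniqueness, and each replicate's own list.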

Additional observations from a re-analysis of the deposited data

How the results depend on the processing

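No paired analysis was possible because the replicates form 1 group and no test was made. Of 88 alternatives, 54 left the value within 1.5 times a count, or within the spread between the replicates for a median. All members gave a median signal of 64.1 in introns and 68.0 between genes, and the other peak sets and windows kept this order. The replicates' own lists did not. Members in replicate 2's list gave 111.7 in introns and 105.3 between genes, and those in replicate 1's list 105.0 and 103.4. The conservative list alone gave 157 members, 50 intronic and 107 intergenic, 91 of them unique, with median signals of 71.6 in introns and 77.9 between genes. Peaks at the highest score alone gave 107 members, 31 intronic and 76 intergenic, 52 of them unique, with medians of 80.1 and 87.1. With a promoter window of 2000 bp upstream to 500 bp downstream, 61 intronic members and 108 unique members were left. Keeping only members in the remaining replicate's own list, with either replicate left out, gave 42 to 58 members, 11 to 17 intronic and 31 to 41 intergenic, 11 to 23 of them unique, with medians of 105.0 to 111.7 in introns and 103.4 to 105.3 between genes; those lists are shorter by construction (156 and 92 peaks). A window of 50 bp to either side, which is shorter by construction, lowered 8 word counts by over 1.5 times. TAATTA was left in 2 members (0.74%), against 2.78% of other listed peaks and 5.31% of genome windows of that length. The B box word was left in 18 (6.69%), against 10.7% and 0.76%. The counts of TTAGGC and GGCGCC stayed within 1.5 times. Alternatives for families, tandem repeats, the B box word and gene ends were chosen after seeing the data. Signals rest on libraries of unknown depth, so no limit on undetected peaks can be given.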
